A study of Mus musculus with 4 samples.

Results

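Laminins and nidogens are secreted proteins of basement membranes, the thin sheets of matrix that underlie epithelia and surround muscle fibres, nerves and blood vessels. The set examined here holds 10 mouse genes, Lama1, Lama2, Lama4, Lama5, Lamb1, Lamb2, Lamc1, Lamc3, Nid1 and Nid2, chosen by name and read through probes whose accession or older symbol belongs to them. A probe was found for 9 of the 10 genes, and Lama5 is not analysed here. All 9 genes passed the filter on dim probes, among 21986 genes tested in all.

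The arrays profiled whole gonads of wild-type male mouse embryos, from the line that the labels name MCH, at 4 stages written E12.5, E13.5, E14.5 and finally E15.5, where the figure after E is the embryonic day. No treatment, allele or transgene is named for any group, so the 4 stages differ by age alone as far as the labels say. Each stage had 2 one-colour Agilent arrays, 8 in all, described by the submitters as biological duplicates, and whether gonads were pooled is not given in the sources used here. A level is the log2 processed spot intensity minus the 75th percentile of its array, so a level of 0 is a probe as bright as that percentile.

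A laminin is built from 1 alpha, 1 beta and 1 gamma chain, which are joined inside the cell before secretion. The alpha chain carries most of the sites that bind cell-surface receptors, and its choice differs between tissues, with Lama4 typical of blood vessels and Lama2 of muscle and nerve. Lamb1 and Lamc1 encode beta and gamma chains shared by many laminins. Nidogens, encoded by Nid1 and Nid2, bind both laminin and type IV collagen and so connect these networks. In the fetal testis a basement membrane encloses the cords of Sertoli and germ cells, with peritubular cells on its outer side.

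Before the results, 3 facts about the arrays bear on all of them. Slide 1 carried the first arrays of E12.5 and E13.5, slide 2 the second arrays of both, and slide 3 all arrays of the later stages, read with a newer version of the scanner software. Differences between E14.5 and E13.5 and between E15.5 and E12.5 therefore cannot be told apart from slide differences. Between 60.3% and 69.8% of probes were well above background per array, no member was saturated, and 8 of the 9 members were well above background on every array. Marker genes of Sertoli, peritubular, endothelial, fetal Leydig and germ cells were likewise well above background on all 8 arrays.

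Lama2 and Lamb1 rose and Lama4 and Nid2 fell between E12.5 and E15.5, and Lamb1 and Nid1 rose in the step between E13.5 and E14.5. From E12.5 to E15.5 Lama2 rose 3.36-fold and Lamb1 rose 2.04-fold, and from E13.5 to E14.5 Lamb1 rose 1.92-fold and Nid1 rose 2.06-fold (n = 2 arrays per stage). Over the whole period Lama4 was 1.57-fold lower and Nid2 1.67-fold lower at the end. All these changes run across slides. The falls of Lama4 and Nid2 and the steps of Lamb1 and Nid1 lost their call under several settings, as given below. No member passed the test between E12.5 and E13.5 or between E14.5 and E15.5. In whole gonads, a change in the number of cells that make a transcript and a change in transcript per cell cannot be told apart.

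**Figure D1:**
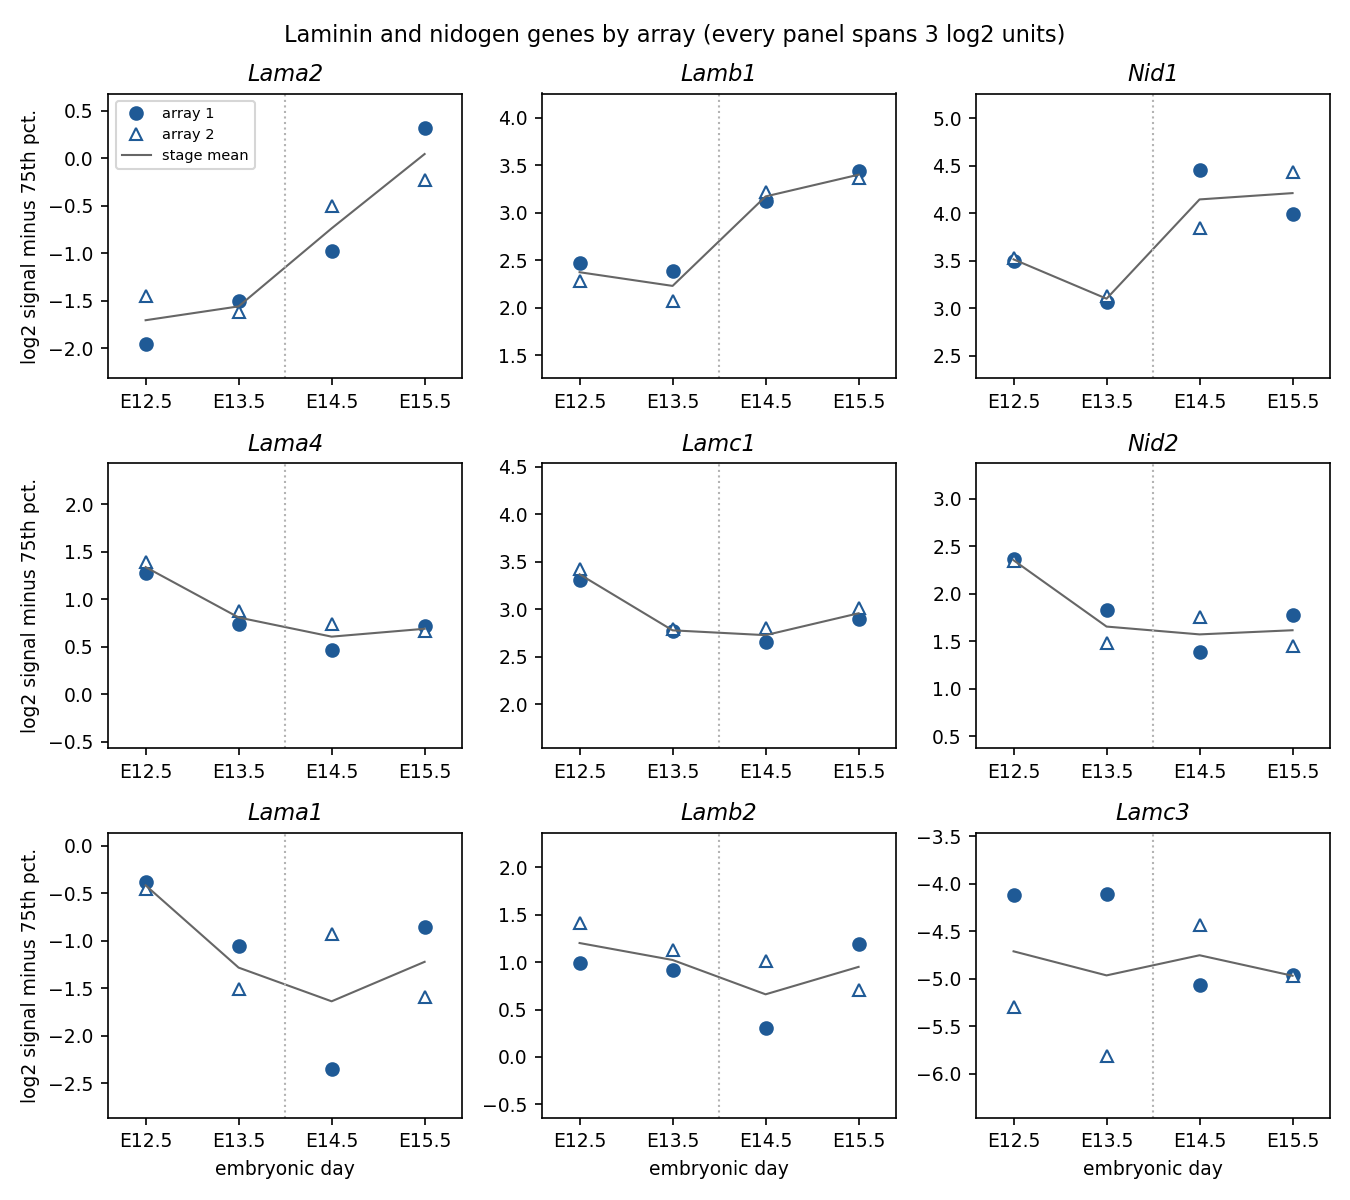
Levels of the 9 laminin and nidogen genes on each array (y axis, log2 signal minus the 75th percentile of the array; x axis, embryonic day). Filled circles are array 1, open triangles array 2, the line joins stage means and the dotted line marks the change of slide. Lama2, Lamb1 and Nid1 lie higher on every array of E14.5 and E15.5 than on any earlier array, whereas Lama4, Lamc1 and Nid2 are highest at E12.5.

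A test over all stages in limma with Benjamini-Hochberg adjustment called 31.1% of all genes and 3 of the 9 members. These were Lamb1 with an adjusted p of 0.0109, Lama2 with 0.0147 and Nid1 with 0.0429. The adjusted p was 0.0646 for Lama4, 0.0756 for Lamc1, 0.0906 for Nid2, 0.276 for Lama1, 0.539 for Lamb2 and 0.97 for Lamc3. A share of 3 in 9 is near the share of all genes, so the set as a whole does not stand out from the array by this count. Without E15.5 array 1 the same test called 1 member.

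Among the alpha chains, Lama2 had the widest range of stage means of any member, 1.75 log2 units. Its levels were -1.96 and -1.45 on the E12.5 arrays, -1.50 and -1.62 at E13.5, -0.97 and -0.50 at E14.5, and 0.32 and -0.23 at E15.5. The arrays of E12.5 and E13.5 overlapped, those of E14.5 lay above them, and those of E15.5 lay above all others. The difference between E15.5 and E12.5 was 1.75 ± 0.29 (log2, limma standard error; 95% interval 1.05 to 2.45), with a limma adjusted p of 0.0056. Single steps did not pass the test, at 0.82 ± 0.29 from E13.5 to E14.5 with an adjusted p of 0.112 and 0.78 ± 0.29 from E14.5 to E15.5 with an adjusted p of 0.433. On slide 3, which held both later stages, each E15.5 array exceeded each E14.5 array, by 0.27 to 1.29. This step lies within a slide and so involves no change of slide or software.

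The Lama2 probe was spotted 10 times on each array, which shows the precision of a single array. Median processed intensities of the spots were 274 and 286 at E12.5, 372 and 291 at E13.5, 782 and 1048 at E14.5, and 2240 and 1282 at E15.5, before any scaling between arrays. The coefficient of variation among the 10 spots ran from 2.62% to 6.77%. At E15.5 the lowest spot of array 1 read 2142 and the highest of array 2 read 1310, so these duplicates differed by more than the spread among spots. Spots of an array share its RNA and are no replicates of a stage. A second Lama2 probe moved the same way in all 4 comparisons, with differences of 0.19, 1.64, 0.65 and 2.48 in the order E13.5 against E12.5, E14.5 against E13.5, E15.5 against E14.5 and E15.5 against E12.5. For that probe the limma p adjusted over all probes was 0.0387 at E14.5 against E13.5 and 0.00386 at E15.5 against E12.5.

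Lama4, an alpha chain of endothelial basement membranes, ran the other way. Its levels were 1.28 and 1.40 at E12.5, 0.74 and 0.87 at E13.5, 0.47 and 0.74 at E14.5, and 0.71 and 0.66 at E15.5. Both E12.5 arrays lay above all 6 later ones, and E14.5 overlapped its neighbours on either side. From E12.5 to E15.5 it fell by 0.65 ± 0.18 on the log2 scale, with a limma adjusted p of 0.0346. The call was lost without either array of E12.5, E13.5 or E15.5, with adjusted p from 0.0593 to 0.155, and was held without either E14.5 array. Of its other probes, which gave -0.41 and -0.44, neither passed, with p adjusted over all probes of 0.232 and 0.112. Most of the difference lay between E12.5 and E13.5, where it was -0.54 within slide 1 and -0.52 within slide 2 and the adjusted p was 0.2.

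Lama1 encodes the alpha chain of the main laminin of early embryonic basement membranes. Its levels were -0.38 and -0.45 at E12.5, -1.06 and -1.51 at E13.5, -2.35 and -0.93 at E14.5, and -0.85 and -1.59 at E15.5. The E12.5 arrays again lay above all later ones, while duplicates of E14.5 differed by 1.42, the widest gap between duplicates of the 8 members well above background throughout. The difference of -0.81 ± 0.49 between E15.5 and E12.5 did not pass, with a limma adjusted p of 0.235 and a 95% interval from -1.97 to 0.36. That interval spans both a rise and a fall.

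Of the beta chains, Lamb1 stepped up between E13.5 and E14.5. Its levels were 2.47 and 2.28 at E12.5, 2.39 and 2.07 at E13.5, 3.12 and 3.22 at E14.5, and 3.44 and 3.36 at E15.5. The early stages overlapped, and every later array exceeded every earlier one. Its step between E13.5 and E14.5 was 0.94 ± 0.19 (95% interval 0.48 to 1.40), with a limma adjusted p of 0.0297. Without either array of E13.5, E14.5 or E15.5 its adjusted p rose to between 0.0618 and 0.145. From E12.5 to E15.5 the difference was 1.03 ± 0.19 with an adjusted p of 0.0084, and without E12.5 array 2 it was 0.93 with an adjusted p of 0.0525. Both E15.5 arrays also exceeded both E14.5 arrays on the shared slide, by 0.14 to 0.32, a step of 0.23 ± 0.19 that did not pass, with an adjusted p of 0.912.

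Lamb2, the beta chain enriched at the neuromuscular junction and in the kidney filter, gave no called change. Its levels were 0.99 and 1.41 at E12.5, 0.91 and 1.13 at E13.5, 0.31 and 1.01 at E14.5, and 1.19 and 0.71 at E15.5. Neighbouring stages overlapped in all cases. The difference between E15.5 and E12.5 was -0.25, with a 95% interval from -0.999 to 0.497 and a limma adjusted p of 0.559. A rise as large as the 1.03 of Lamb1 lies outside that interval.

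The gamma chain Lamc1, a partner in most laminins, had levels of 3.31 and 3.42 at E12.5, 2.77 and 2.79 at E13.5, 2.65 and 2.80 at E14.5, and 2.90 and 3.02 at E15.5. Its duplicates were the closest of all members, never more than 0.15 apart. The E12.5 arrays were the highest, by 0.55 within slide 1 and 0.63 within slide 2 over E13.5, yet the difference of -0.59 ± 0.17 had a limma adjusted p of 0.132. On slide 3 both E15.5 arrays lay 0.10 to 0.36 above the E14.5 arrays, with an adjusted p of 0.865 for the step. Lamc3, a gamma chain of restricted distribution, was dim and well above background on 6 of the 8 arrays. Its levels were -4.12 and -5.30 at E12.5, -4.11 and -5.82 at E13.5, -5.07 and -4.44 at E14.5, and -4.97 and -4.97 at E15.5. Duplicates of Lamc3 on slides 1 and 2 differed by up to 1.71, more than any difference between its stage means, and its second probe moved the opposite way between E12.5 and E15.5.

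The nidogens parted from each other. Nid1 had levels of 3.50 and 3.53 at E12.5, 3.07 and 3.13 at E13.5, 4.45 and 3.84 at E14.5, and 3.99 and 4.43 at E15.5. All later arrays exceeded all earlier ones, and E14.5 and E15.5 overlapped. Its step between E13.5 and E14.5 was 1.05 ± 0.26 (95% interval 0.42 to 1.67), with a limma adjusted p of 0.0491. That call stood at the threshold and was lost without any single array other than E14.5 array 2, with adjusted p from 0.0713 to 0.169. It was also lost with arrays scaled to their medians, at 0.0802. Between E15.5 and E12.5 the difference was 0.70 ± 0.26 with an adjusted p of 0.0813, and the adjusted p was 0.0484 without either E14.5 array.

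Nid2 had levels of 2.36 and 2.34 at E12.5, 1.83 and 1.48 at E13.5, 1.39 and 1.76 at E14.5, and 1.78 and 1.45 at E15.5. As for Lama4, both E12.5 arrays were the highest, and all later stages overlapped. Nid2 fell by 0.74 ± 0.23 on the log2 scale from E12.5 to E15.5, with a limma adjusted p of 0.0479. This call too was lost without either array of E12.5, E13.5 or E15.5, with adjusted p from 0.0605 to 0.232. Within slides the difference between E13.5 and E12.5 was -0.53 and -0.86.

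Promoter sequence is shown for Lamb1 and Nid1, the members called together between E13.5 and E14.5, to give the DNA just upstream of the genes that stepped up. The RefSeq table of promoters, build GRCm38.p6, held 5 of the 10 members, and each window was limited to the bases before the annotated gene. Capitals mark a GC box (GGGCGG or CCGCCC) or a CCAAT box (CCAAT or ATTGG), searched on both strands. The Lamb1 window is chr12:31265043-31265145 and the Nid1 window chr13:13437352-13437601, both on the plus strand.
Lamb1: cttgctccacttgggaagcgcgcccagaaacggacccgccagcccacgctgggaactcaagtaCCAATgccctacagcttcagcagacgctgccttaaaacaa
Nid1: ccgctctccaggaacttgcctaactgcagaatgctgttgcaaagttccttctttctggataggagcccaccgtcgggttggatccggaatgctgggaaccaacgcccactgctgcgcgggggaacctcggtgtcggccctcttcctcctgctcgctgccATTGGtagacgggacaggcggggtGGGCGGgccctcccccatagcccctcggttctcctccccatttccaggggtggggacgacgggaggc
The annotated gene of Lamb1 starts before the transcript of the promoter table, and the 147 bases between, which hold 2 GC boxes, are not printed. The 103 bases of Lamb1 shown held 1 CCAAT box and 0 GC boxes, against a share of 13.9% and 10.8% of all 32851 promoters over the same stretch. The 250 bases of Nid1 held 1 CCAAT box and 1 GC box, against shares of 33.8% and 32.7%. Neither held TATAAA or TTTATA. GC content was 58.3% for Lamb1 and 64.4% for Nid1, with medians of 50.5% and 52.4% over all promoters. A match of this kind describes letters in a window and marks no proven site.

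Read by interval, no member was called between E12.5 and E13.5, where limma called 2.68% of all genes higher and 1.30% lower. An unadjusted limma p was under 0.05 for Lama4, Lamc1 and Nid2, and with slide as a block 0 members were called as well. The shares above are at an adjusted p, and the share of all genes at an unadjusted p was not taken. Of the 9 members, 8 had a negative difference, against 56.2% of all genes, and the median member difference was -0.41 against -0.06 for all genes. The remaining steps were -0.87 ± 0.49 for Lama1, -0.41 ± 0.26 for Nid1, -0.18 ± 0.31 for Lamb2, -0.14 ± 0.19 for Lamb1, -0.25 ± 0.62 for Lamc3 and 0.15 ± 0.29 for Lama2. Within both slides the difference was negative for 7 members, whereas Lama2 and Lamc3 had a positive value on slide 1 and a negative one on slide 2. The share of all genes negative within both slides was not taken, so this count does not set the members apart from other genes.

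Between E13.5 and E14.5, across slides, 2 members were called higher and 0 lower, where limma called 6.44% of all genes higher and 6.04% lower. The median member difference was -0.05 against -0.02 for all genes, over members that went both ways. The 2 called members and Lama2 had an unadjusted limma p under 0.05, with no share of all genes taken at that threshold. The second Lama2 probe passed over all probes as given above. Between E14.5 and E15.5, within slide 3, limma called 0 members. Lama2 alone of the members had an unadjusted limma p under 0.05, again with no share of all genes taken at that threshold. In that interval 0.559% of all genes were called higher and 0.0955% lower. Of the members 8 had a positive difference, while 48% of all genes had a negative one, and the member median was 0.23 against 0.01. With arrays scaled to their medians, which moved the median of all genes to -0.13, the member median was 0.09 and the small differences of Lama4, Nid1 and Nid2 turned negative.

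Over the whole period from E12.5 to E15.5 the set split, with 2 members called higher, 2 lower and 5 not called. All genes split alike, with 17.6% called higher and 17.4% lower. The median member difference was -0.26 against -0.07 for all genes. Among the members not called, Lamc1 gave -0.41 ± 0.17 with an adjusted p of 0.106 and Lamc3 gave -0.26 ± 0.62 with an adjusted p of 0.77.

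**Figure D2:**
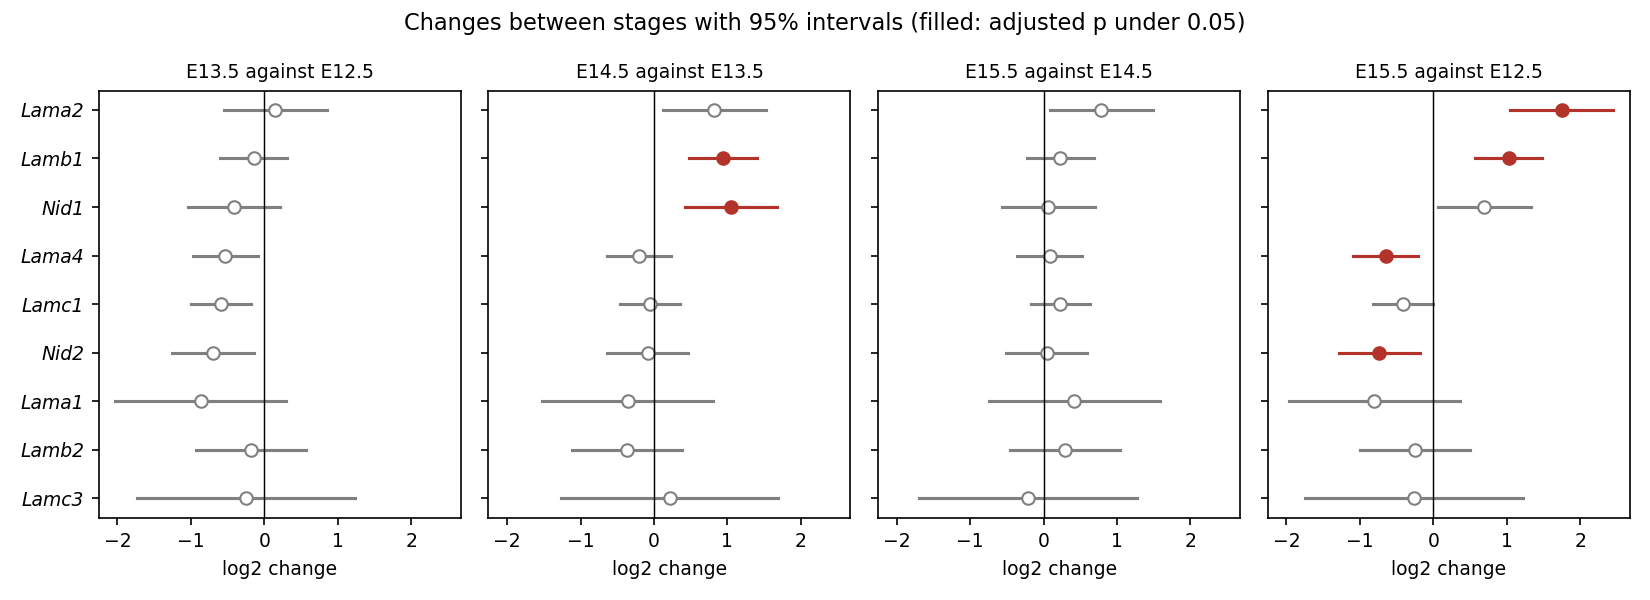
Differences between stages for each member (x axis, log2 later minus earlier, points with 95% limma intervals; 1 panel per comparison). Filled red points passed an adjusted p of 0.05 over all genes: Lamb1 and Nid1 at E14.5 against E13.5, and Lama2, Lamb1, Lama4 and Nid2 at E15.5 against E12.5.

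Ratios between members on the same array are unaffected by a constant factor per array, although quantile scaling can move them, and they show the changes of partner and sister genes together. A difference between slides that acts on single probes does not cancel in a ratio. Changes of ratios from E13.5 to E14.5 and from E12.5 to E15.5 therefore still cannot be told apart from slide differences. Relative to the mean of E12.5, the log2 ratio of Lama2 to Lama4 was 0.80 and 0.55 at E13.5, 1.60 and 1.79 at E14.5, and 2.65 and 2.15 at E15.5. The balance between these 2 signals thus moved towards Lama2 on every later array, with no overlap between stages, though partly across slides. For Nid1 over Nid2 the values were 0.08 and 0.49 at E13.5, 1.90 and 0.92 at E14.5, and 1.05 and 1.82 at E15.5. This ratio was higher on all arrays of slide 3 than on any other, and E14.5 and E15.5 overlapped. For Lamb1 over its partner Lamc1 the values were 0.62 and 0.28 at E13.5, 1.47 and 1.41 at E14.5, and 1.54 and 1.34 at E15.5. For Lamb1 over the sister chain Lamb2 they were 0.30 and -0.23 at E13.5, 1.64 and 1.04 at E14.5, and 1.08 and 1.48 at E15.5. A ratio shows that a pair changed unequally and not which of them changed, and these 4 ratios were chosen after the levels were known.

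**Figure D3:**
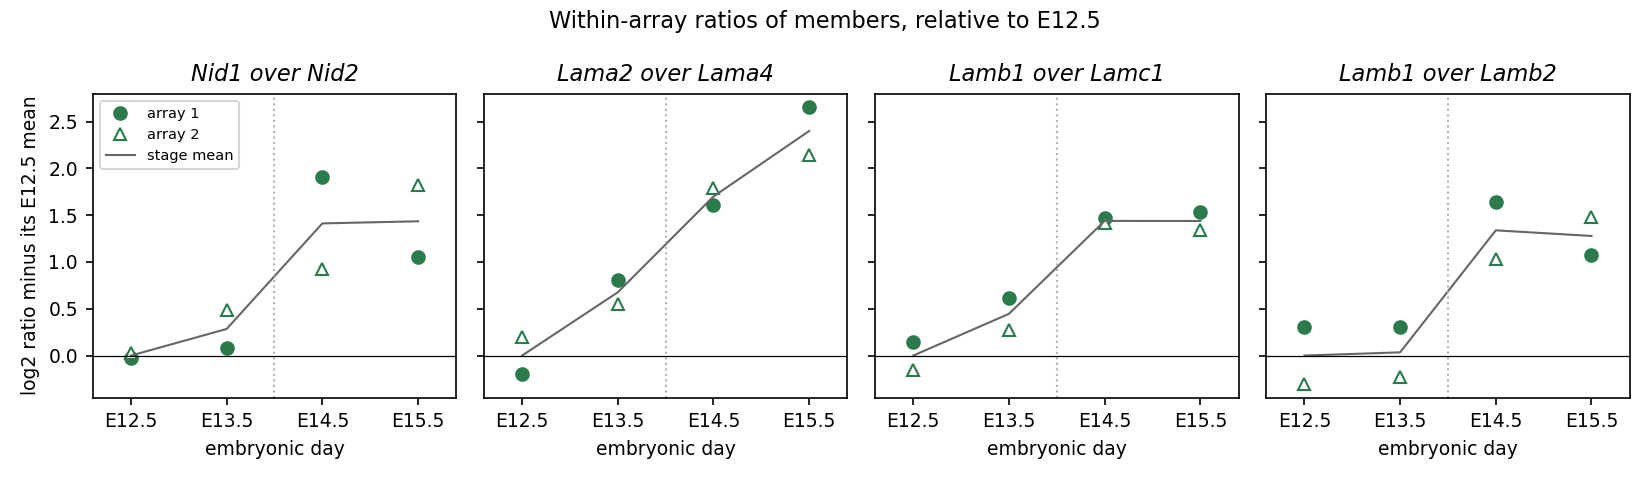
Log2 ratios of pairs of members within each array, relative to their E12.5 mean (y axis) by embryonic day (x axis). Filled circles are array 1, open triangles array 2, the line joins stage means and the dotted line marks the change of slide. The ratio of Lama2 to Lama4 reaches 2.65 and 2.15 at E15.5, and for the other ratios the arrays of E14.5 and E15.5 overlap.

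Other basement membrane genes and laminin receptors gave a mixed picture in the same arrays. Of 30 such genes 26 were tested, and 0 were called between E12.5 and E13.5 or between E14.5 and E15.5. Between E13.5 and E14.5 there was 1 called higher and 3 lower, where 6.44% and 6.04% of all genes were called. Between E12.5 and E15.5 there were 4 higher and 8 lower, where 17.6% and 17.4% of all genes were called, and the median difference was -0.31 against -0.07 for all genes. Both counts of genes called higher include Lamb3, which passed the filter only through E15.5, where it is high, as described below. It was the only gene called higher between E13.5 and E14.5. Of 6 type IV collagen chains, the main structural partner of laminin, 4 were not called over the whole period. Of the others Col4a6 fell by 1.56 ± 0.17 and Col4a3 rose by 1.12 ± 0.34 between E12.5 and E15.5, with limma adjusted p of 0.00114 and 0.0452. The call of Col4a6 held with each array left out in turn, whereas that of Col4a3 was lost without either array of E12.5, E14.5 or E15.5, with adjusted p up to 0.146. The 3 genes called lower between E13.5 and E14.5 were Col4a6, which fell by 1.22 ± 0.17 on the log2 scale, Npnt, which fell by 0.999 ± 0.24, and Itga3, which fell by 0.84 ± 0.16. Leaving out single arrays raised the adjusted p of these steps to as much as 0.0781 for Col4a6, 0.185 for Npnt and 0.118 for Itga3, in each case without either E13.5 array or without E14.5 array 1, and for Npnt and Itga3 also without E14.5 array 2 or either E15.5 array.

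Lamb3, a beta chain of the epithelial laminin that anchors skin, came up from background. Its levels were -7.61 and -6.22 at E12.5, -7.48 and -7.75 at E13.5, -5.98 and -5.28 at E14.5, and -3.26 and -3.39 at E15.5. It was well above background on 3 arrays, and not on any array of E12.5 or E13.5 or on E14.5 array 1. Its level at E12.5 is therefore only a bound, and it passed the filter only through E15.5, where it is high. Between E12.5 and E15.5 the signal of Lamb3 became at least 6.24-fold higher. The limma adjusted p of 0.00224 takes no account of this entry through E15.5 and is given as a description. It was also the 1 gene of the list called higher between E13.5 and E14.5, with a limma adjusted p of 0.0414. Because E14.5 array 1 was itself not well above background, no fold or bound is given for that step. The call was lost without either array of E13.5, E14.5 or E15.5. A bound such as that of 6.24-fold takes, for each dim array of the dimmer stage, the higher of the probe's own signal and the lowest signal well above background.

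Among the receptors, Itgb4, the integrin beta chain of hemidesmosomes, had levels of -2.58 and -2.59 at E12.5, -2.39 and -2.46 at E13.5, -1.69 and -1.77 at E14.5, and -0.93 and -0.54 at E15.5. It rose by 1.85 ± 0.19 from E12.5 to E15.5, with a limma adjusted p of 0.00102. Its duplicates were close and successive stages did not overlap. Itga3, the alpha chain of a laminin-binding integrin, fell by 1.50 ± 0.16 on the log2 scale with an adjusted p of 0.00114. Dag1, which encodes dystroglycan, the receptor for the globular ends of alpha chains, fell by 1.30 ± 0.35 with an adjusted p of 0.0287, a call lost without either E12.5 array or without E15.5 array 2, with adjusted p up to 0.156. The other 4 of the 7 receptor genes tested were not called over that period.

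Of the other matrix genes, Col18a1, a collagen of basement membranes that yields endostatin, fell by 1.57 ± 0.21 with a limma adjusted p of 0.00271. Npnt, an integrin ligand of epithelial basement membranes, fell by 1.63 ± 0.24 on the same scale. Npnt was well above background on 1 of the 2 E15.5 arrays and on all 6 earlier ones. Fras1 and Frem2, which act in a complex at the epithelial basement membrane, fell by 1.78 ± 0.30 and 0.94 ± 0.22. Smoc1, a secreted calcium-binding protein, fell by 0.73 ± 0.23 with an adjusted p of 0.0481. Col15a1 rose by 0.70 ± 0.20 with an adjusted p of 0.0349. The calls of Smoc1 and Col15a1 were lost without either array of E12.5, E13.5 or E15.5, with adjusted p up to 0.235 and 0.183, and that of Frem2 without E12.5 array 2 or either E15.5 array, with adjusted p up to 0.108. These values compare E15.5 with E12.5 and so run across slides.

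**Figure D4:**
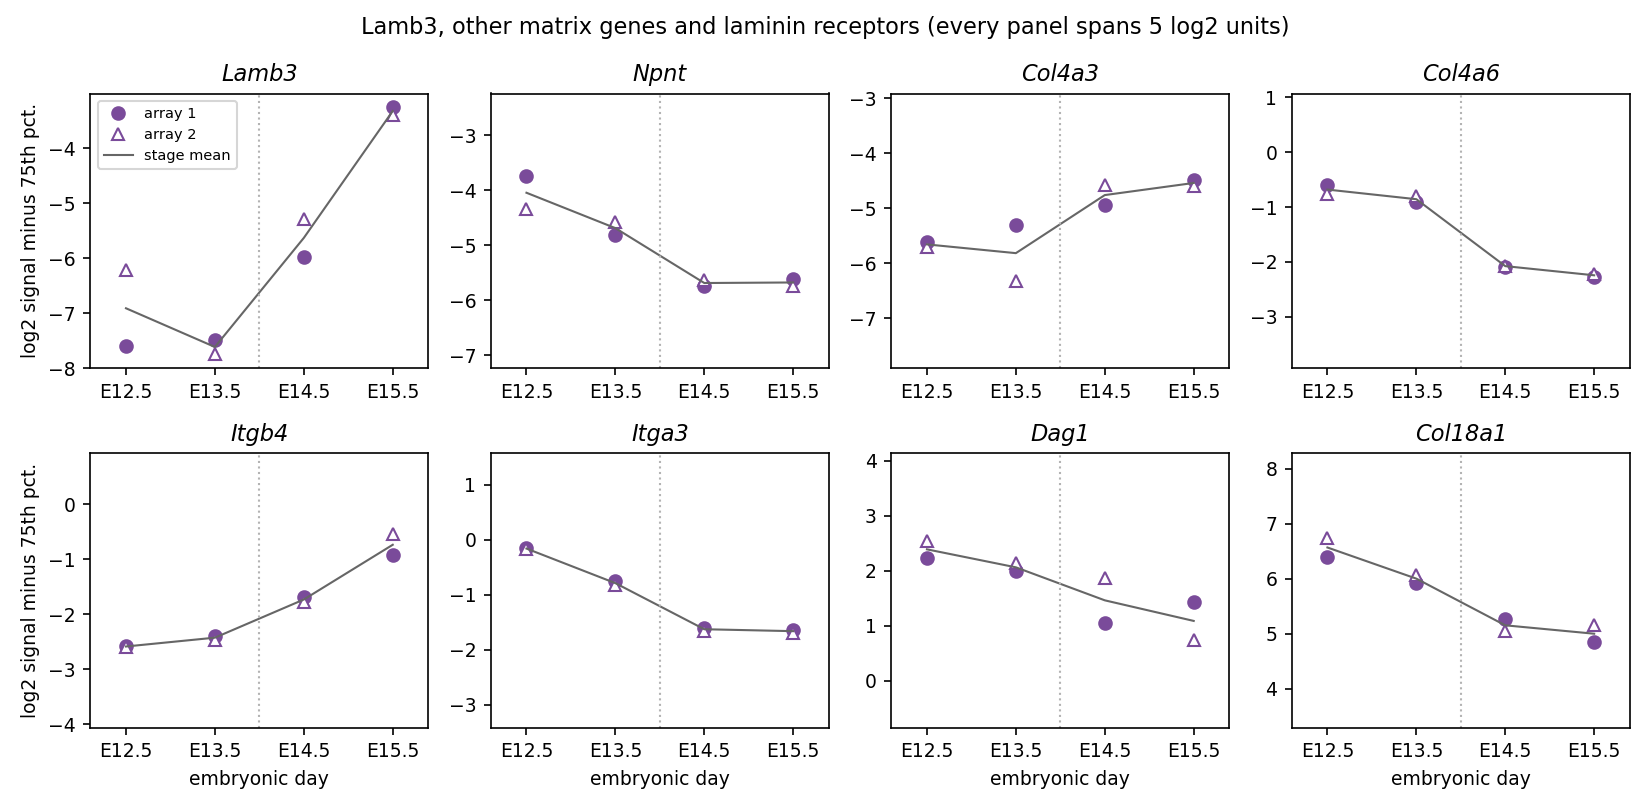
Levels of a further laminin chain (Lamb3), Npnt, type IV and type XVIII collagen genes (Col4a3, Col4a6, Col18a1) and laminin receptors (Itgb4, Itga3, Dag1) on each array (y axis, log2 signal minus the 75th percentile of the array; x axis, embryonic day). Symbols and lines are as for the members. Values not well above background are those of Lamb3 at E12.5, at E13.5 and on E14.5 array 1, of Npnt on E15.5 array 2 and of Col4a3 on E13.5 array 2. Lamb3 and Itgb4 are highest at E15.5, and Itga3, Dag1, Npnt, Col4a6 and Col18a1 are highest at E12.5.

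Markers of cell types that could contribute these transcripts moved too. The mean level of 5 peritubular and smooth muscle genes was -0.16 and 0.61 at E12.5, 0.71 and 1.34 at E13.5, 1.13 and 1.26 at E14.5, and 1.80 and 1.60 at E15.5. Of these genes 3 rose between E12.5 and E15.5, Acta2 by 2.04 ± 0.19, Myh11 by 2.16 ± 0.26 and Cnn1 by 3.54 ± 0.21. Over that period 17.6% of all genes were called higher and 17.4% lower. Tagln at -0.09 ± 1.01 and Des at -0.26 ± 0.53 were not called. The list mean carries the spread of Tagln, whose levels were 2.70 and 5.70 on the E12.5 arrays. The mean of 6 endothelial genes was 0.54 and 0.50 at E12.5 and between -0.31 and 0.00 on all later arrays. Within that list Kdr fell by 2.59 ± 0.19 and Cldn5 by 1.86 ± 0.18 between E12.5 and E15.5. The other 4 were not called, at -0.22 for Pecam1, -0.30 for Cdh5, 0.55 for Tek and -0.04 for Esam. The list was highest on both E12.5 arrays, as were the members Lama1, Lama4, Lamc1 and Nid2. The same held for the nephric duct and erythroid lists described next, so the trait is not particular to endothelial genes.

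The mean of 4 nephric duct and tubule genes went from -2.48 and -2.45 at E12.5 to -4.72 and -4.92 at E15.5, with Lhx1 and Pax2 lower and Pax8 higher. Cdh16 was not called, at -2.84 ± 1.05 with a limma adjusted p of 0.0774. The list mean carries its spread, with levels of -4.54 and -0.82 on the E13.5 arrays. Pax2 was well above background on 4 arrays and Pax8 on 6, so the list mean includes dim values. Pax2 was at least 2.39-fold lower at E15.5 and Pax8 at least 2.95-fold higher, since neither array of the dimmer stage was above background. The call of Pax8 was lost without either E12.5 array or E15.5 array 1, with adjusted p up to 0.126. Of 5 Sertoli cell genes 1, Cldn11, fell (adjusted p 0.0624 without E15.5 array 2), and their mean went from 2.74 and 2.44 to 1.87 and 2.07. All 5 fetal Leydig cell genes rose between E12.5 and E15.5, and their mean went from 2.19 and 1.87 to 4.73 and 4.53. Of 4 striated muscle genes 2 rose, Myog by 2.09 ± 0.26 and Acta1 by 1.996 ± 0.56, and 1 fell, with means of -2.97 and -3.42 at E12.5 and -2.85 and -2.87 at E15.5. The Acta1 call was lost without E12.5 array 2 or any single array of E14.5 or E15.5, with adjusted p up to 0.136. Of 5 germ cell genes 1 rose and 3 fell, and of 4 surface epithelium genes 1 rose, Msln by 4.22 ± 0.23, and 1 fell. Of 2 macrophage genes 1 rose, and all 3 erythroid genes tested fell, their mean going from 4.60 and 4.91 to -1.51 and -2.16. Of all genes 17.6% were called higher and 17.4% lower over this period, so 1 call among 4 or 5 genes is near those shares. The part of any of these cell types in the laminin and nidogen results was not tested.

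**Figure D5:**
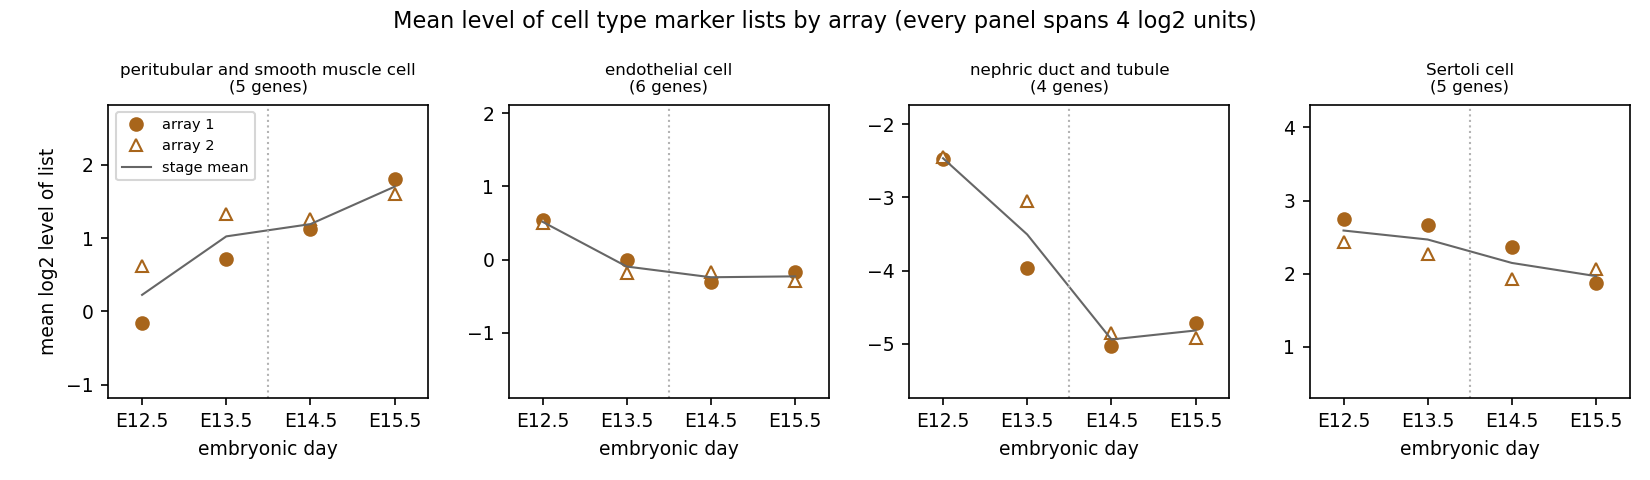
Mean level of 4 lists of cell type markers on each array (y axis, mean log2 signal minus the 75th percentile of the array; x axis, embryonic day). Filled circles are array 1, open triangles array 2, the line joins stage means and the dotted line marks the change of slide. The peritubular list is lowest on both E12.5 arrays, and the endothelial and nephric duct lists are highest there.

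Genes whose pattern was most like that of Lama2 were sought among 2063 named genes with at least as wide a range of stage means. Over the 8 arrays the highest Pearson correlations were 0.977 for Sult5a1, 0.977 for Dyrk4 and 0.976 for Tap2. Sult5a1 had levels of -2.09 and -1.90 at E12.5, -1.47 and -1.79 at E13.5, -1.13 and -0.74 at E14.5, and 0.08 and -0.10 at E15.5. Tap2 was dimmer, at -5.30 and -4.97 at E12.5 and -2.72 and -3.21 at E15.5. Dyrk4 went from -8.35 and -7.94 at E12.5 to -4.48 and -4.68 at E15.5. Its E12.5 levels lay below those of Lamb3, -7.61 and -6.22, which were not well above background. The arrays share slides and stages, so these values describe likeness on these arrays only.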

How the data were processed

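Deposited scanner files held spot intensity of one-colour (Cy3) Agilent arrays, which per the file headers was already corrected for background and spatial trends, with no scaling between arrays. The headers give Feature Extraction 9.1.3.1 for E12.5 and E13.5 and 9.5.3.1 for E14.5 and E15.5, and the submitters' processing notes give 9.5. The authors' deposited table holds 1 column of linear ratio values per stage, of unknown centring, scale and averaging over arrays. It served only to check direction, which was the same for all 6 called member changes.

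Spots of a probe were averaged without marked outliers, and log2 values were set relative to each array's 75th percentile. The filter asked for both arrays of any 1 stage to be well above background, which kept 28188 of 41174 probes, and 22951 probes (55.7%) had a RefSeq symbol through their accession. Each gene was read from its probe of highest mean. A limma 3.58.1 model in R 4.3.3 held a mean per stage, with 4 residual and 2.57 prior degrees of freedom. P-values were adjusted over 21986 genes with the Benjamini-Hochberg method, and a change was called at an adjusted p under 0.05. Values after ± are limma standard errors. P-values measure only the spread between duplicates, and the number of arrays limits the precision. The test was also run on simulated data with independent noise on each array and no slide effect. That run does not bear on slide differences.

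Members, related genes and markers were chosen with earlier results of these data known. Every member is named, as are related genes called between stages, and some genes are not reported here. Alternatives covered background, scaling, filter, slide, replicate number, arrays in the fit, probes and arrays left out. The files used here hold no mean spot signal, so the normexp alternative (offset 50) took the median signal, and a variant chosen after seeing the data replaced 3 extreme background values of E13.5 array 2.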

Additional observations from a re-analysis of the deposited data

How the results depend on the processing

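All 6 called member changes kept their direction under all 18 settings tried, and no setting called a member between E12.5 and E13.5 or between E14.5 and E15.5. The change of Lama2 over the whole period was 1.47 to 2.11 and remained called in 17 settings, all but normexp (adjusted p 0.0605). That of Lamb1 was 0.93 to 1.16 and remained in 16, lost under normexp (0.126) and without E12.5 array 2. The others remained called in fewer settings, namely Lamb1 in 8 (0.78 to 1.22) and Nid1 in 6 (0.74 to 1.43) between E13.5 and E14.5, and Lama4 in 5 (-0.71 to -0.42) and Nid2 in 7 (-0.90 to -0.57) over the whole period. Members called between E13.5 and E14.5 numbered 0 under normexp, with no filter and with only the arrays compared, 1 with median scaling, and 0 to 1 with single arrays left out. Over the whole period they numbered 0 under normexp, 2 with no filter and with only the arrays compared, and 1 to 5 with arrays left out. Over all stages they numbered 0 under normexp, 5 with extreme background values replaced, and 1 to 3 with arrays left out. Normexp called 0 genes of all between E13.5 and E14.5, and with 3 background values of E13.5 array 2 replaced it called 2 members there. With replicate number as a block, 0 members were called between E13.5 and E14.5 (adjusted p 0.0526 for Lamb1 and 0.0806 for Nid1) and 2 over the whole period (0.0536 for Lama4 and 0.0735 for Nid2). Deviations from the stage means of same-numbered arrays correlated at 0.65 for E12.5 and E13.5, which share slides, at -0.59 for E14.5 and E15.5 and between -0.08 and 0.07 for other pairs of stages, so the numbers were not taken to pair the arrays. Differences that turned sign were all uncalled. Under normexp these were Lamc3 at 1.10 (E13.5 against E12.5) and, at E14.5 against E13.5, Lamc1 at 0.25, Nid2 at 0.064 and Lamc3 at -1.52, the last at -0.26 with background values replaced. Quantile scaling gave Lamc1 0.023 at E14.5 against E13.5, and median scaling gave Lama4 -0.061, Nid1 -0.078 and Nid2 -0.10 at E15.5 against E14.5. The mean of all probes gave Lama4 0.0023 at E14.5 against E13.5, and Lamc3 0.028 at E13.5 against E12.5, 0.0097 at E15.5 against E14.5 and 0.15 at E15.5 against E12.5. With arrays left out in turn, E13.5 against E12.5 ran from -0.11 to 0.40 for Lama2, -0.30 to 0.013 for Lamb1, -0.39 to 0.031 for Lamb2 and -1.11 to 0.60 for Lamc3. E14.5 against E13.5 ran from -1.07 to 0.36 for Lama1, -0.13 to 0.024 for Lamc1, -0.64 to 1.06 for Lamc3 and -0.27 to 0.10 for Nid2. E15.5 against E14.5 ran from -0.29 to 1.13 for Lama1, -0.055 to 0.22 for Lama4, -0.062 to 0.64 for Lamb2, -0.53 to 0.10 for Lamc3, -0.24 to 0.37 for Nid1 and -0.14 to 0.23 for Nid2. E15.5 against E12.5 ran from -0.85 to 0.33 for Lamc3. The cause of these shifts was not tested. Signal over background limits Lamc3 and Lamb3, and a lone array of a stage was assumed to vary like the other stages.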
